A study of Homo sapiens with 8 samples.

Results

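The imprinted genes H19, IGF2, KCNQ1 and CDKN1C on the short arm of chromosome 11, and DLK1 and MEG3 on the long arm of chromosome 14, were examined for dimethylation of lysine 4 of histone H3 (H3K4me2), a mark found at promoters and enhancers in use. The members are the H3K4me2 peaks that overlap, by at least 1 bp, chromosome 11 from 2 to 2.915 Mb or chromosome 14 from 101.180 to 101.540 Mb of the hg19 build. They number 185 of the 280986 peaks in 6 deposited lists, with 152 on chromosome 11 and 33 on chromosome 14. The peaks come from ChIP-seq, in which chromatin carrying the mark is precipitated with an antibody and its DNA sequenced, in RD cells, an established human rhabdomyosarcoma line, and the study's title asks about the adhesion of such cells. The first group, called siLSD1, received an siRNA against LSD1, the demethylase of H3K4me2 encoded by KDM1A. The second, called siCtrl, received a control siRNA. Both siRNAs were given by reverse transfection, the medium was replaced after 8 hours and the cells were harvested 96 hours after transfection. Each siRNA has 2 ChIP libraries, which the submitters call biological replicates, with a peak list each and a list of the pooled replicates. The model is a transient knockdown in a single cell line, and the level of LSD1 was not measured in these data. The 4 input libraries were not analysed here.

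In an imprinted locus, the copy inherited from the mother and the copy from the father are marked differently, and each gene is expressed mainly from the one or the other. H19, a long noncoding RNA, is expressed from the maternal copy, while its neighbour IGF2, a fetal growth factor, is expressed from the paternal copy. Loss of this asymmetry with high IGF2 expression is a known feature of rhabdomyosarcoma. KCNQ1 encodes a potassium channel and hosts the antisense transcript KCNQ1OT1, which silences nearby genes in cis on the paternal copy. CDKN1C encodes an inhibitor of cyclin-dependent kinases expressed from the maternal copy. DLK1, a membrane protein related to the Notch ligands and a regulator of muscle and fat cell differentiation, is expressed from the paternal copy, and MEG3, a long noncoding RNA, from the maternal copy. The peak lists do not tell the parental copies apart.

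The order of the genes was taken from RefSeq on the GRCh38.p14 build, from the low to the high end of each interval. From H19 to CDKN1C it lists 29 genes, of which 12 are protein-coding. H19 comes first, with MIR675 beside it, followed by IGF2, INS, TH, ASCL2, TSPAN32, CD81, TSSC4, TRPM5 and KCNQ1 with KCNQ1OT1, and CDKN1C comes last. On chromosome 14, DLK1 precedes MEG3, and from there to MIR410 RefSeq lists 102 genes, of which 51 are miRNA genes and 46 small nucleolar RNA genes. An hg19 gene annotation was not used here, so the gene in which a peak lies was not determined. Regions are therefore given by their hg19 coordinates and by their distance from the low end of the interval.

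H3K4me2 flanks promoters, and promoter sequences of 300 bases were available for 2 of the 6 genes. They are printed because each is listed as a promoter of the noncoding, maternally expressed RNA of its locus. The sequences are from RefSeq, build GRCh38.p14, and start 250 bases before the transcript's start. The only H19 entry is chr11:2001217-2001516 on the minus strand. The MEG3 entry used is chr14:100825858-100826157 on the plus strand, the first of 3 for that gene. Each stands for a single listed transcript start, and other starts of these genes were not examined. These coordinates are on another build than the peaks and cannot be set against them. Capitals mark CpG dinucleotides, the sites at which DNA methylation distinguishes the parental copies.
H19 promoter: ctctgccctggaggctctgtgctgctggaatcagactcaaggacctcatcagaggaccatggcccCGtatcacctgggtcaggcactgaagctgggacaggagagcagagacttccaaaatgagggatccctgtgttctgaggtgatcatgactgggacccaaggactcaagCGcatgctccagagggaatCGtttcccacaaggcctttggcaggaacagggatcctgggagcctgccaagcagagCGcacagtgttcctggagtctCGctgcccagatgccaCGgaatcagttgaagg
MEG3 promoter: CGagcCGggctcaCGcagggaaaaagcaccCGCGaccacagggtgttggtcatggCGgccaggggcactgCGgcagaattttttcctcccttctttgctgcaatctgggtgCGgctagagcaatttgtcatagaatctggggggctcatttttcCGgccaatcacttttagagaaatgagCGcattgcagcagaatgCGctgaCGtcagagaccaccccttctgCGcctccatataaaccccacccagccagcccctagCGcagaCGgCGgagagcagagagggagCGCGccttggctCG
The H19 sequence held 6 CpG dinucleotides at a GC content of 57.7%, and 66.3% of 35116 RefSeq promoters of the same length held as many or more. The MEG3 sequence held 19 at a GC content of 59.0%, which 42.9% of promoters reached, and the median promoter held 14. Both strands were searched for TGACGTCA, the cAMP response element, and for TATAAA, the core of the TATA box. The MEG3 sequence held both motifs and the H19 sequence held neither. TGACGTCA was found in 1.85% of all promoters and TATAAA in 11.5%, and these matches describe the letters only.

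The noncoding RNAs of both loci also carry miRNAs. MIR675 lies within H19, and a large cluster follows MEG3. Of 11 miRNA genes picked by name from the loci, 10 had mature sequences, 19 in all, and no seed was shared between any of the 19. RefSeq lists 51 miRNA genes after MEG3, and the seeds of those not picked were not compared. The 6 printed here run from both arms of MIR675 to members at the start and at the end of the chromosome 14 cluster. Capitals mark the seed, bases 2 to 8, through which a miRNA pairs with its targets. No miRNA level was measured in these data.
hsa-miR-675-5p: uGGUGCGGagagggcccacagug
hsa-miR-675-3p: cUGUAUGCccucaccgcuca
hsa-miR-770-5p: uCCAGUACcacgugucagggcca
hsa-miR-127-3p: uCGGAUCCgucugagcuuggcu
hsa-miR-379-5p: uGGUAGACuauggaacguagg
hsa-miR-410-3p: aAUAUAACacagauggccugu

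The lists differ in length, which bears on every count. The siLSD1 lists held 50587 and 49611 peaks and the siCtrl lists 33878 and 44831, so the list of siCtrl replicate 1 was the shortest. Covered sequence averaged 101 ± 5.33 Mb in siLSD1 and 82.1 ± 17.0 Mb in siCtrl (SD, n = 2 each), a ratio of 1.23 with a two-sided exact permutation p = 0.333, the smallest that 2 libraries against 2 allow. Read depth is unknown for all lists. The part that sequencing depth plays in the difference was not tested.

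In the chromosome 11 interval, from H19 to CDKN1C, the length under peaks overlapped between the groups. Peaks covered 62.5 and 59.1 kb of its 915 kb in the siLSD1 libraries, and 58.4 and 65.8 kb in the siCtrl libraries. The siCtrl values enclose both siLSD1 values. The means were 60.8 ± 2.37 kb in siLSD1 and 62.1 ± 5.26 kb in siCtrl (SD, n = 2 each), a difference of -1.30 kb and a ratio of 0.979 with a two-sided exact permutation p = 1.0. This difference has no stable direction, since it was 0.380 kb without siLSD1 replicate 2 and 2.42 kb without siCtrl replicate 2. Peaks numbered 26 and 24 in siLSD1 and 25 and 26 in siCtrl.

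Set against all covered sequence of the same list, the interval had a smaller share in both siLSD1 libraries. It held 0.0645% and 0.0566% of the covered sequence in siLSD1, and 0.0832% and 0.0699% in siCtrl, and the groups do not overlap. The means were 0.0605 ± 0.00556% in siLSD1 and 0.0766 ± 0.00939% in siCtrl (SD, n = 2 each). Their ratio was 0.791, with a two-sided exact permutation p = 0.333, the smallest possible. The covered length of the interval had a ratio of 0.979 and all covered sequence a ratio of 1.23. Most of the lower share is thus the larger total of the siLSD1 lists. The interval was denser in peaks than the genome in every library. Peaks covered 6.83% and 6.46% of it in siLSD1 and 6.38% and 7.19% in siCtrl, which is 2.14 and 1.88 times the genome-wide cover in siLSD1 and 2.76 and 2.32 times in siCtrl.

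**Figure D1:**
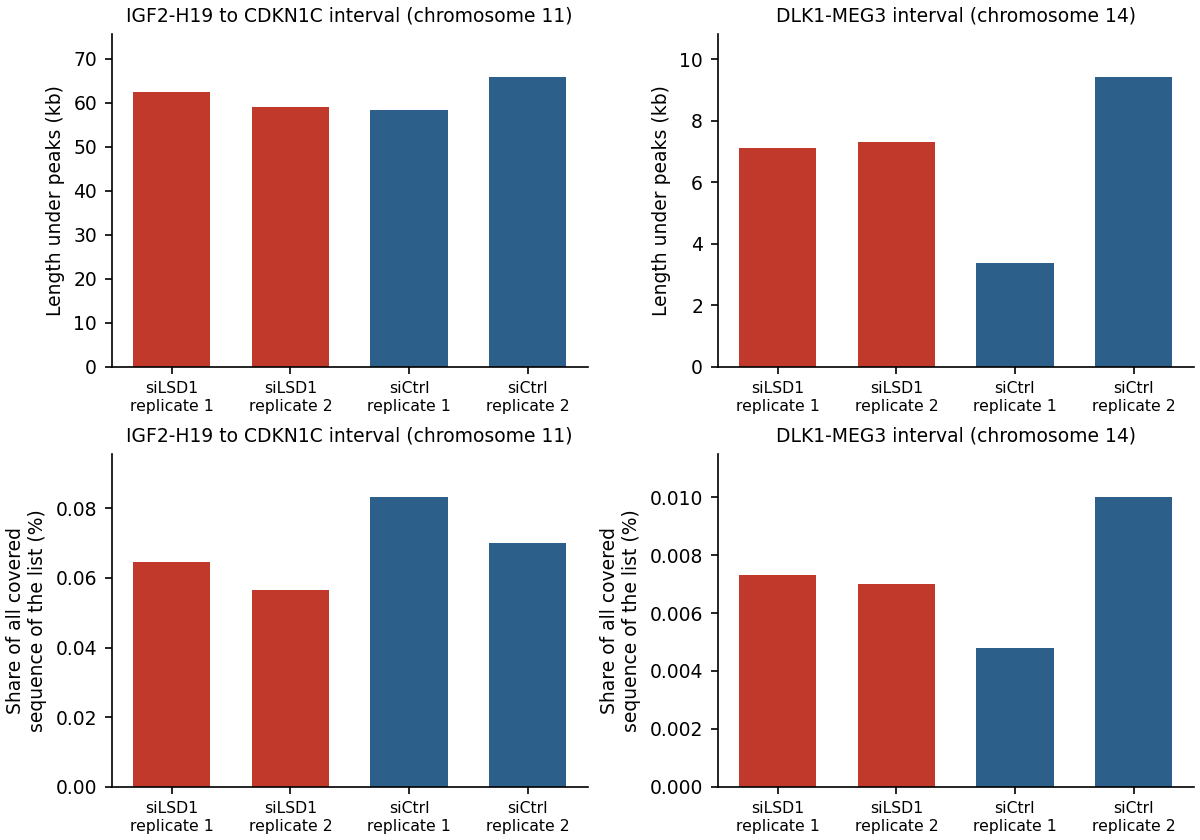
Length under H3K4me2 peaks in kb (upper panels) and share of all covered sequence of the list in percent (lower panels) for the chromosome 11 interval (left) and the chromosome 14 interval (right), with 1 bar per library, siLSD1 in red and siCtrl in blue. On chromosome 11 the siLSD1 lengths, 62.5 and 59.1 kb, lie between the siCtrl lengths, 58.4 and 65.8 kb, while the shares do not overlap. On chromosome 14 siCtrl replicate 1 is lowest in both panels and siCtrl replicate 2 highest.

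Merging overlapping peaks of the 4 libraries gave 28 regions in the chromosome 11 interval. A peak was present in all 4 libraries, here called common, in 14 of the 28 regions (50%), against 45.2% of 58952 regions genome-wide. Gained regions had a peak in both siLSD1 libraries and in no siCtrl library, and lost regions the other way round. In the chromosome 11 interval 1 region was gained, where 6.97% of regions were gained genome-wide, and 0 were lost, where 1.04% were lost genome-wide. Of the 14 common regions, 6 were broader, with both siLSD1 values (bp under peaks) above both siCtrl values, where 30.3% of 26653 common regions did so genome-wide. The reverse, narrower, held for 3, where 9.62% did so genome-wide. The median difference in length under peaks, siLSD1 minus siCtrl, was 211 bp over the 14 regions and 126 bp over all 26653. With the top 33878 peaks of every list, the length of the shortest, the interval held 22 regions, of which 12 were common. Then 0 were gained (3.29% genome-wide), 1 was lost (3.42%), 4 common regions were broader (30.0%) and 2 were narrower (9.43%).

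The marked sequence was unevenly placed. In blocks of 50 kb from the low end, 5 of 19 blocks held no peak in any library. The block from 150 to 200 kb held most, with 16.2 and 17.2 kb under peaks in siLSD1 and 18.4 and 19.4 kb in siCtrl. The block from 400 to 450 kb came next, with 15.1 and 14.6 kb in siLSD1 and 10.9 and 13.0 kb in siCtrl. These blocks, the richest of the interval, differ in opposite directions. They hold the broadest region and most of the cluster described below, and so largely repeat those values. The longest stretch with no peak in any library was 161 kb, from 555.9 to 717.2 kb.

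**Figure D2:**
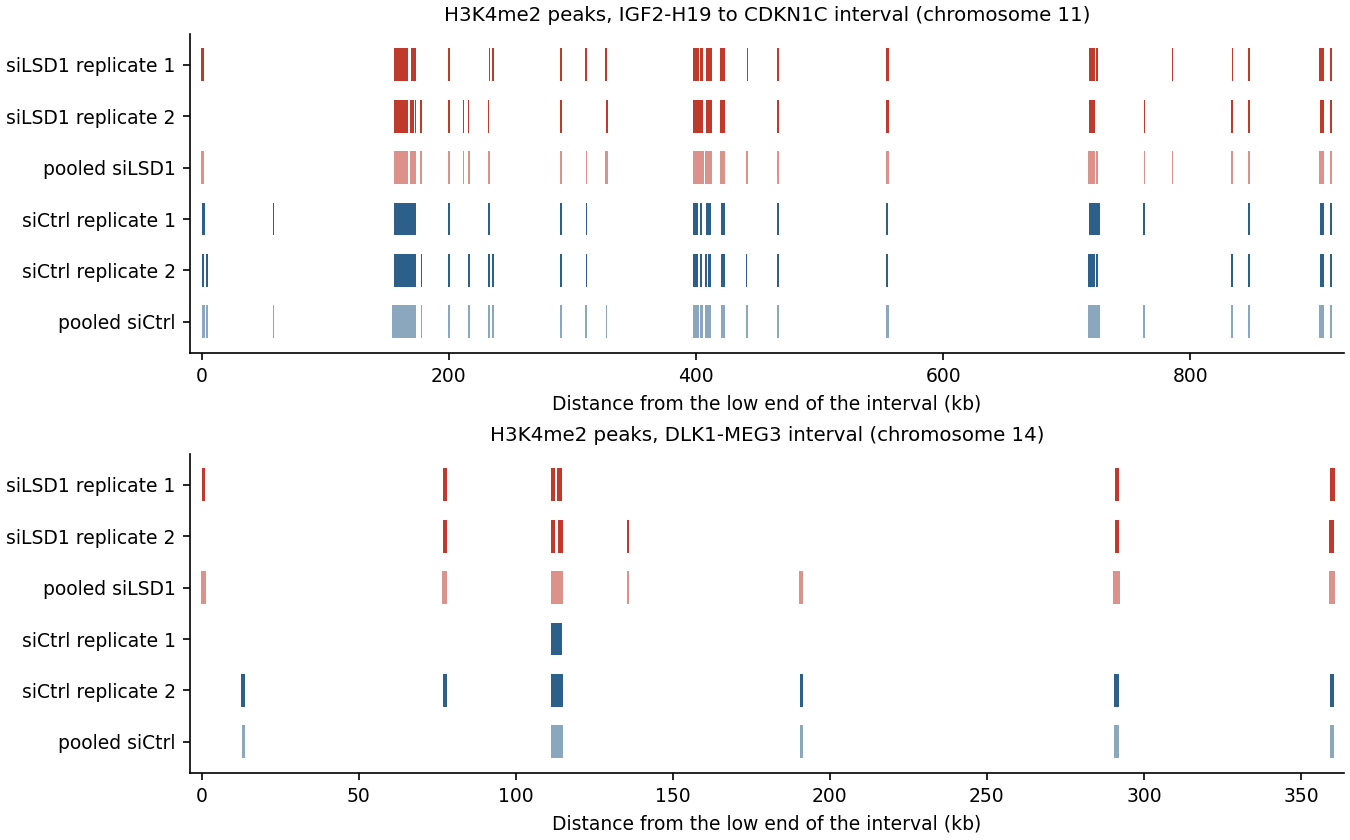
H3K4me2 peaks of the 4 library lists and the 2 pooled lists along the chromosome 11 interval (upper panel) and the chromosome 14 interval (lower panel), drawn to scale against distance from the low end in kb, with siLSD1 in red, siCtrl in blue and pooled lists in paler shades. The broad block from 155.5 kb and the cluster from 397.7 kb stand out on chromosome 11, and siCtrl replicate 1 has peaks at only 1 place of the chromosome 14 interval.

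The broadest region of the chromosome 11 interval was shorter after siLSD1. It lies at chr11:2155529-2173763, 155.5 to 173.8 kb from the low end, and is 18235 bp wide. By its mean length under peaks it ranked 16 among all 26653 common regions of the genome. Peaks covered 15638 and 15695 bp of it in siLSD1, and 18049 and 18048 bp in siCtrl. Replicates were close to each other in total length, though their peaks were divided at different places. The groups do not overlap, with means of 15666.5 ± 40.3 bp in siLSD1 and 18048.5 ± 0.707 bp in siCtrl (SD, n = 2 each) and a difference of -2382 bp. The difference was -1624.5 bp with equal numbers of peaks and -2868 bp with the upper 50% of each list by score. A difference in bp as low or lower was found in 21 of the 26653 common regions (0.0788%). That rank is by bp, of which a broad region has more to lose. The ratio of the means was 0.868, against 0.778 and 0.872 in the other narrower regions of the interval.

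The missing sequence was mainly a gap inside the region rather than at its ends. In siLSD1 replicate 1 a peak of 11679 bp ended at 167.2 kb and the next began at 169.8 kb. In siLSD1 replicate 2 a peak of 10804 bp ended at 166.8 kb and the next began at 168.4 kb. In siCtrl replicate 1 a peak of 11684 bp, and in siCtrl replicate 2 a peak of 16533 bp, ran across this stretch. The 1152 bp at chr11:2167208-2168359 were thus under peaks in both siCtrl libraries and in neither siLSD1 library. The pooled lists, made from the same replicates and so no independent check, show the same, with a gap from 167.2 to 168.5 kb in pooled siLSD1 and a single peak of 19254 bp in pooled siCtrl.

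The authors' peak scores did not follow the length. The score appears to be a p-value on a negative log scale, and it was used to rank peaks within a list. The highest score in the region was 1075 and 3100 in the siLSD1 libraries, and 1383 and 891.55 in the siCtrl libraries. These scores were at percentiles 95.8 and 99.7 of their lists in siLSD1, and at 98.7 and 76.3 in siCtrl.

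**Figure D3:**
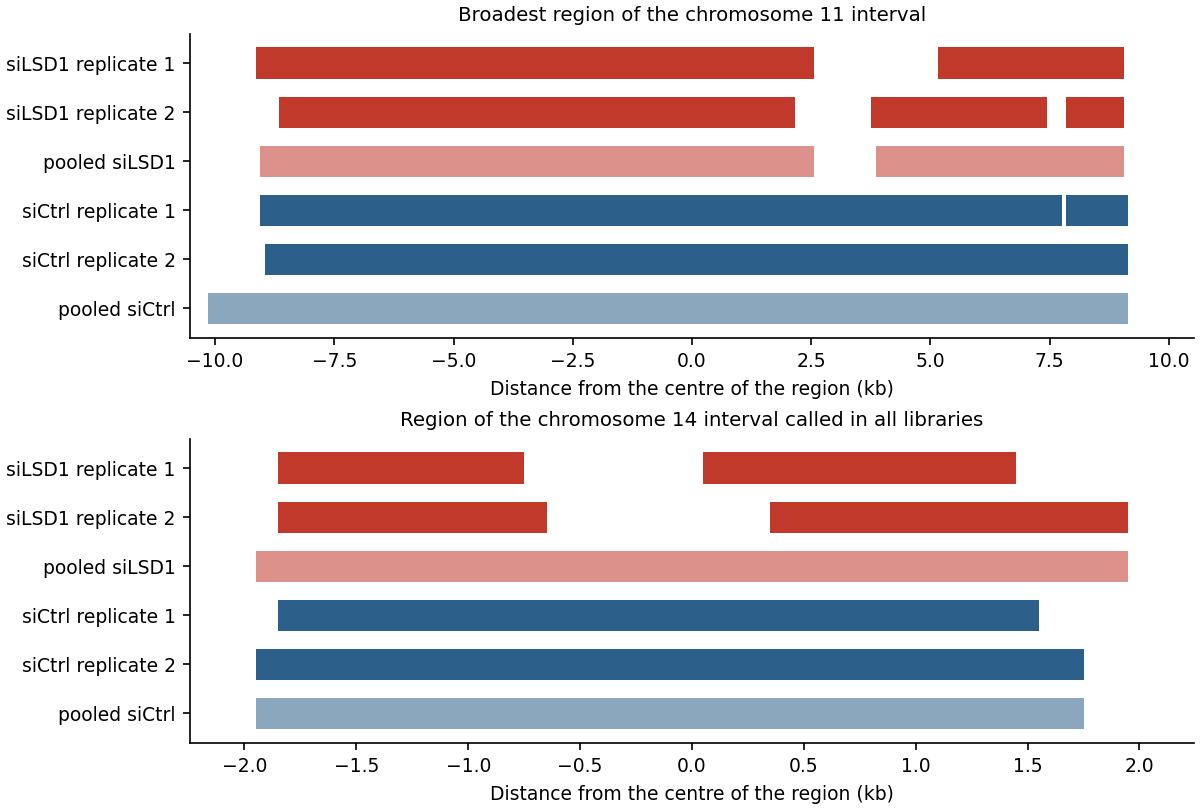
Peaks of each list, drawn to scale, in the broadest region of the chromosome 11 interval (upper panel) and in the region of the chromosome 14 interval common to all libraries (lower panel), against distance in kb from the region's centre, with siLSD1 in red above siCtrl in blue and pooled lists in paler shades. In each region both siLSD1 libraries have a gap over an internal stretch that both siCtrl libraries cover. Breaks between siCtrl peaks are narrower and lie outside that stretch. On chromosome 14 the pooled siLSD1 peaks nearly close the gap.

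The cluster from 397.7 to 423.8 kb held 4 regions that were common to all libraries. The first 3 were broader after siLSD1, as were 30.3% of common regions genome-wide. The first, chr11:2397688-2405852, was under peaks for 7621 and 8069 bp in siLSD1, and for 5631 and 6127 bp in siCtrl. The groups do not overlap, with means of 7845 ± 316.8 bp in siLSD1 and 5879 ± 350.7 bp in siCtrl (SD, n = 2 each) and a difference of 1966 bp. It was the second broadest region of the interval, and 321 of 26653 common regions (1.20%) had a difference in bp as high or higher. The ratio of its means was 1.33. Both siLSD1 libraries and neither siCtrl library covered chr11:2401568-2402744, 1177 bp inside the region, and 359 bp near its high end. The pooled lists gave 8774 bp in siLSD1 and 6902 bp in siCtrl. The highest score was 611.82 and 1384 in siLSD1, and 566.34 and 1164 in siCtrl, so here the scores overlap between the groups.

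Its neighbour at chr11:2407452-2412824 was under peaks for 5013 and 4873 bp in siLSD1, and for 4125 and 4493 bp in siCtrl. The groups do not overlap and the difference was 634 bp. With equal numbers of peaks the difference was -123.5 bp and with the upper 50% of each list it was 2702 bp, so its direction depends on how many peaks are taken. The next region, chr11:2419582-2421848, had 2035 and 2181 bp in siLSD1, and 1395 and 1915 bp in siCtrl, a difference of 453 bp that was 193 bp without siCtrl replicate 1 and 713 bp without siCtrl replicate 2. The last, chr11:2421922-2423784, begins 0.073 kb further on and was narrower after siLSD1, with 1416 and 1717 bp in siLSD1, and 1863 and 1730 bp in siCtrl and little between the replicates 2. In the pooled siCtrl list these last regions were under a single peak of 3994 bp, so both lengths depend on where the signal was divided into peaks.

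Toward the high end, the broad regions did not separate the groups. The region at chr11:2717229-2723276 was under peaks for 5041 and 4628 bp in siLSD1, and for 4675 and 5832 bp in siCtrl. The difference of -419 bp was 159.5 bp without siCtrl replicate 2, -997.5 bp without siCtrl replicate 1 and -212.5 bp without siLSD1 replicate 2. A single pooled siCtrl peak of 9581 bp joined this region to the next, chr11:2723424-2726556, which had 1801 and 0 bp in siLSD1, and 3133 and 1650 bp in siCtrl. The region at chr11:2904179-2908265, close to the CDKN1C end, was among the best-scoring, with 4087 and 3466 bp in siLSD1, and 3434 and 3625 bp in siCtrl. The groups overlap, and the difference of 247 bp was -63.5 bp without siLSD1 replicate 1, 557.5 bp without siLSD1 replicate 2 and 151.5 bp without siCtrl replicate 1. Its highest scores were at percentiles 98.0 and 96.2 in siLSD1, and at 96.7 and 98.9 in siCtrl. At the very end, chr11:2912752-2914964 had 2072 and 2191 bp in siLSD1, and 1609 and 1890 bp in siCtrl, a difference of 382 bp without overlap of the groups.

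Other common regions lay elsewhere in the interval. At chr11:2553752-2555922, between stretches of 86.7 and 161 kb without a peak, peaks covered 2100 and 2146 bp in siLSD1, and 1746 and 2051 bp in siCtrl, a difference of 224.5 bp. It was 72 bp without siCtrl replicate 1, 377 bp without siCtrl replicate 2 and -848.5 bp with the upper 50% of each list by score. At chr11:2199405-2201008 they covered 1576 and 1383 bp in siLSD1, and 1102 and 1246 bp in siCtrl. At chr11:2231778-2233548 the groups stood the other way, with 1332 and 1038 bp in siLSD1, and 1605 and 1441 bp in siCtrl. That difference, -338 bp, was -1523 bp with equal numbers of peaks, 0 bp with the upper 50% of each list, in which no library kept a peak there, and -191 bp without siLSD1 replicate 2. The remaining 3 common regions, at 289.7, 465.5 and 846.6 kb, overlapped between the groups.

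**Figure D4:**
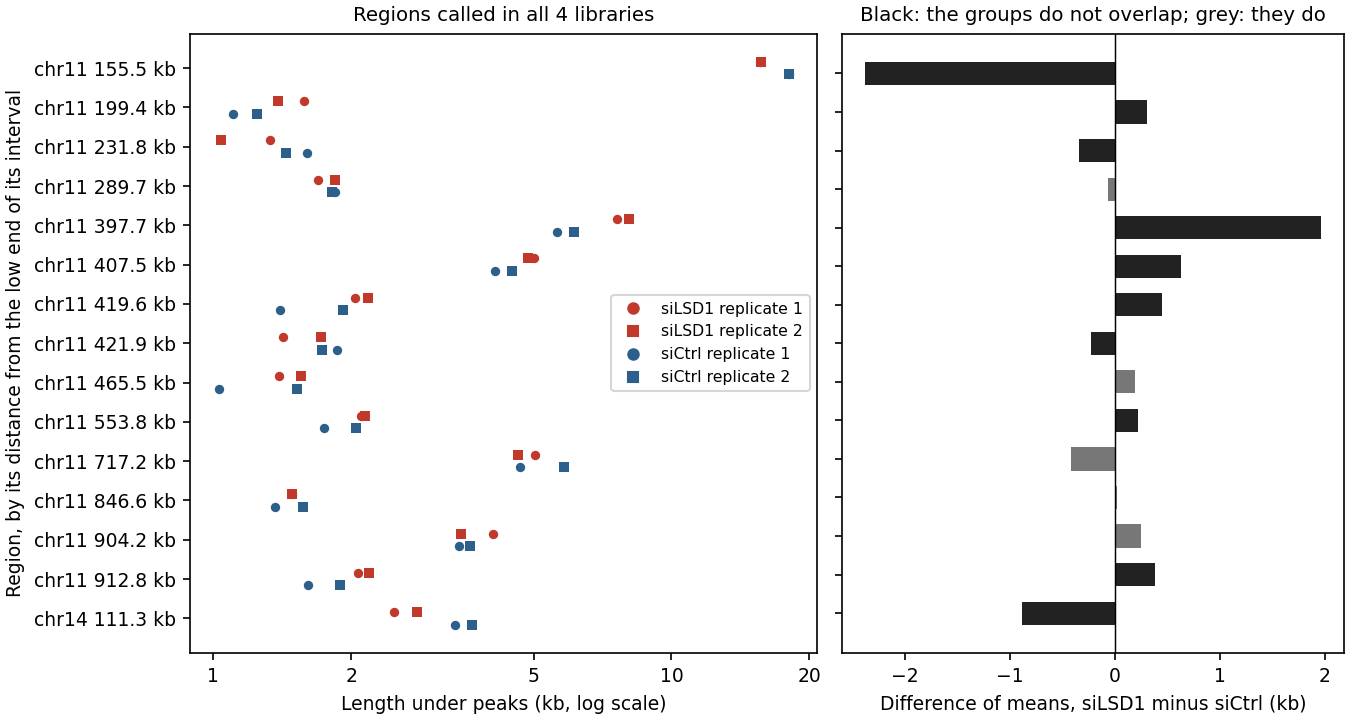
Length under peaks in kb on a log scale in each library (left) and difference of the group means in kb, siLSD1 minus siCtrl (right), for the 15 regions common to all 4 libraries, listed by chromosome and distance from the low end of the interval, with siLSD1 in red and siCtrl in blue. The lowest difference, -2382 bp, is at 155.5 kb and the highest, 1966 bp, at 397.7 kb of chromosome 11, and the chromosome 14 region is lower in both siLSD1 libraries.

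The gained region of the interval had unequal peaks in the siLSD1 libraries. At chr11:2326772-2328783, peaks covered 920 and 1790 bp in siLSD1, and 0 and 0 bp in siCtrl. The score was 50.38 in siLSD1 replicate 1, at percentile 0.365 of its list, and 226.22 in siLSD1 replicate 2, at percentile 52.7. The pooled siCtrl list holds a peak of 1269 bp with a score of 68.93 at the same place, beside a pooled siLSD1 peak of 2051 bp with a score of 242.25. The region is thus called in siCtrl once the replicates are pooled.

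The low end of the interval, toward H19, held few and weak peaks. The region at chr11:1999912-2002480 reaches across the edge and was under peaks for 2155 and 0 bp in siLSD1, and for 2251 and 2348 bp in siCtrl. At chr11:2003619-2005175 siCtrl replicate 2 alone had a peak, of 1557 bp, and at chr11:2058078-2058849 siCtrl replicate 1 alone, of 772 bp. Beyond it followed 96.7 kb with no peak in any library, up to the broadest region. No library's score in these 3 regions was above percentile 37.9 of its list. In all, 13 of the 28 regions were neither common, gained nor lost.

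Between the pooled lists, 2 of 26 siLSD1 peaks in the interval (7.69%) had no overlapping siCtrl peak, and 3 of 25 siCtrl peaks (12.0%) had no overlapping siLSD1 peak. Over the whole genome these shares were 27.0% of the pooled siLSD1 peaks and 8.86% of the pooled siCtrl peaks. Of the 80.0 kb of the interval under a peak of any library, 3.35 kb (4.18%) were covered in both siLSD1 libraries only and 1.81 kb (2.27%) in both siCtrl libraries only. The shares genome-wide were 6.95% for siLSD1 and 1.41% for siCtrl.

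Covered length in windows of 10 kb was tested with limma over the whole genome. At a Benjamini-Hochberg adjusted p under 0.05, limma called 0 of 43372 windows (0%), with 5389 windows higher and 840 lower after siLSD1 at an unadjusted p under 0.05. In the chromosome 11 interval 24 windows were tested, 0 were called, and 3 were higher and 1 lower at an unadjusted p under 0.05. The window from 400 to 410 kb held 7.53 and 8.08 kb under peaks in siLSD1, and 5.34 and 5.96 kb in siCtrl. Its difference was 2.16 ± 0.403 kb (SE), with a limma adjusted p = 0.141. The window from 160 to 170 kb held 7.44 and 8.42 kb in siLSD1, and 9.97 and 10 kb in siCtrl, which is the whole window in siCtrl replicate 2. Its difference was -2.06 ± 0.465 kb (SE), with a limma adjusted p = 0.184. The window from 410 to 420 kb held 3.24 and 3.01 kb in siLSD1, and 2.28 and 2.45 kb in siCtrl, a difference of 0.760 ± 0.192 kb (SE) with a limma adjusted p = 0.212. That difference was 0.0025 kb with equal numbers of peaks and 0.438 kb with quantile normalization. These windows had the 3 smallest limma p of the interval, a choice that favours groups without overlap, and none passed the threshold.

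The chromosome 14 interval, with DLK1 and MEG3, was poor in H3K4me2. Peaks covered 7.10 and 7.31 kb of its 360 kb in the siLSD1 libraries, and 3.37 and 9.42 kb in the siCtrl libraries. The siCtrl values enclose the siLSD1 values, and the siCtrl replicates differ more from each other than from siLSD1. The means were 7.21 ± 0.151 kb in siLSD1 and 6.39 ± 4.28 kb in siCtrl (SD, n = 2 each), a difference of 0.815 kb and a ratio of 1.13 with a two-sided exact permutation p = 1.0. Without siCtrl replicate 1 the difference was -2.21 kb. Peaks numbered 6 and 6 in siLSD1, and 2 and 6 in siCtrl. The cover was 0.618 and 0.591 times the genome-wide cover of the same list in siLSD1, and 0.405 and 0.844 times in siCtrl, below the genome-wide cover in every library. As a share of all covered sequence the interval held 0.00733% and 0.00700% in siLSD1, and 0.00480% and 0.0100% in siCtrl, with a two-sided exact permutation p = 1.0.

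Of the 8 regions in this interval, 1 was common to all libraries, 0 were gained and 0 were lost, where genome-wide 6.97% of regions were gained and 1.04% lost. The common region is chr14:101291318-101295209, 111.3 to 115.2 kb from the low end, and it was narrower after siLSD1, as were 9.62% of common regions genome-wide. Peaks covered 2474 and 2790 bp of it in siLSD1, and 3366 and 3665 bp in siCtrl. The groups do not overlap, with means of 2632 ± 223.4 bp in siLSD1 and 3515.5 ± 211.4 bp in siCtrl (SD, n = 2 each) and a difference of -883.5 bp. A difference in bp as low or lower was found in 366 of 26653 common regions (1.37%), and the ratio of the means was 0.749. As in the broadest region of chromosome 11, the siLSD1 libraries had a gap inside the region. The 701 bp at chr14:101292627-101293327 were under peaks in both siCtrl libraries and in neither siLSD1 library.

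The scores of this region were also lower in siLSD1. The highest score was 160.66 and 98.0 in the siLSD1 libraries, and 241.26 and 403.16 in the siCtrl libraries, at percentiles 46.5 and 25.6 of the siLSD1 lists, and 61.4 and 58.2 of the siCtrl lists. The pooled scores were 213.97 in siLSD1 and 733.0 in siCtrl. The pooled lengths went the other way, with 3878 bp in siLSD1, where peaks of 1364 and 2514 bp nearly closed the gap, and 3760 bp in siCtrl. With equal numbers of peaks the difference between libraries was -2278.5 bp, and with the upper 50% of each list by score it was -2911.5 bp. In the first case siLSD1 replicate 2, and in the second both siLSD1 libraries, had no peak there, so the region was no longer common to all libraries.

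The other 7 regions of the DLK1-MEG3 interval depended on the list. At 76.8, 290.5 and 359.0 kb from the low end every library but siCtrl replicate 1, the shortest list, had a peak. The first of these, chr14:101256799-101258195, had 1259 and 1395 bp in siLSD1, and 0 and 1281 bp in siCtrl. The second, chr14:101470476-101472196, had 1477 and 1487 bp in siLSD1, and 0 and 1598 bp in siCtrl. The third, chr14:101539050-101540902, had 1662 and 1521 bp in siLSD1, and 0 and 1531 bp in siCtrl. In all 3, siCtrl replicate 2 resembled the siLSD1 libraries in length. At 76.8 kb, however, the score of siCtrl replicate 2 was 51.84, at percentile 1.34 of its list. The siLSD1 scores there were 117.29 and 71.09, at percentiles 35.1 and 13.7. The pooled siLSD1 list holds a peak of 1542 bp at 76.8 kb and the pooled siCtrl list holds none. At 290.5 and 359.0 kb both pooled lists hold a peak. The regions at the low edge and at 135.4 kb were found in a single siLSD1 library each, with 1128 bp in siLSD1 replicate 1 and 689 bp in siLSD1 replicate 2. Those at 12.7 and 190.6 kb were found in siCtrl replicate 2 and no other library, with 1052 and 925 bp. At 190.6 kb, however, the pooled lists hold a peak for both siRNAs, of 1217 bp with a score of 93.41 in siLSD1 and of 925 bp with a score of 86.85 in siCtrl. The widest stretch with no peak in any library was 99.0 kb, from 191.5 to 290.5 kb.

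In the pooled lists 3 of 8 siLSD1 peaks of this interval (37.5%) and 1 of 5 siCtrl peaks (20%) had no overlapping peak in the other pooled list, where genome-wide 27.0% of pooled siLSD1 peaks and 8.86% of pooled siCtrl peaks had none. With equal numbers of peaks 4 regions were left, of which 0 were common, 0 gained and 0 lost, where genome-wide 54.4% were common, 3.29% gained and 3.42% lost. Of the 11.8 kb under a peak of any library, 0.112 kb (0.953%) were covered in both siLSD1 libraries only and 0.701 kb (5.96%) in both siCtrl libraries only. The genome-wide shares were 6.95% for siLSD1 and 1.41% for siCtrl. All of the 0.701 kb is the stretch inside the common region given above, so the siCtrl share of the interval repeats that gap. The 0.112 kb lies near the high end of the region at 290.5 kb.

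In the limma fit 4 windows of the chromosome 14 interval were tested, 0 were called, and at an unadjusted p under 0.05 there were 0 higher and 1 lower. The lower window, from 110 to 120 kb, holds the whole common region and no other peak, and differed by -0.884 ± 0.236 kb (SE) with a limma adjusted p = 0.238. With equal numbers of peaks it differed by -2.28 kb. The window from 70 to 80 kb differed by 0.687 ± 0.538 kb (SE) with a limma adjusted p = 0.710, by 0.046 kb without siCtrl replicate 1, by 1.33 kb without siCtrl replicate 2 and by 0.243 kb with quantile normalization. The window from 290 to 300 kb differed by 0.683 ± 0.651 kb (SE) with a limma adjusted p = 0.756, by -0.116 kb without siCtrl replicate 1, by 1.48 kb without siCtrl replicate 2, by 0.25 kb with quantile normalization and by -0.0555 kb with equal numbers of peaks.

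In neither interval did a test pass its threshold, and the exact permutation test cannot do so with 2 libraries against 2. The input libraries, the copy number of the loci in RD cells and the expression of the 6 genes were not analysed here, and their part in these lengths was not tested.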

How the data were processed

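The authors deposited a peak list for each ChIP library and each pair of pooled replicates, with a start, an end and a score per peak. The way of pooling is not stated. Reads were aligned with Bowtie to hg19, per the submitters' processing notes, and the deposited peak names carry the name of MACS. Neither source gives a version or a setting. From the values, the lowest deposited score is 50 or 50.01, so the score may be minus 10 times log10 of p. The depth is unknown, so neither intervals nor detection limits are given.

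Autosomes and X were used. Peaks on Y and unplaced contigs, 3 to 26 per library list and 85 and 78 in the pooled siLSD1 and siCtrl lists, were left out. Library peaks that shared 1 bp or more formed a region. Totals were compared by two-sided exact permutation tests. Covered kb per 10-kb window was fitted with limma 3.58.1 (trend and robust, statmod 1.5.0, R 4.3.3) on windows with at least 0.5 kb in 2 libraries, with Benjamini-Hochberg adjustment over all 43372. Both steps were tested on simulated data. The rest used Python 3.11.15 (scipy 1.17.1, pandas 2.3.3, numpy 2.4.6, matplotlib 3.10.9), with chromosome lengths from GenomeInfoDb 1.38.1 and chromosome bands from circlize 0.4.16.

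The genes, intervals and lists were chosen with earlier results of these data known. Named regions are the 6 broadest common regions of each interval, the gained and lost regions, the 3 highest and 3 lowest differences in breadth, and the 3 windows of smallest p. Other regions are named to complete the account of the intervals and were chosen after their values were seen. Alternatives were equal numbers of peaks (the top 33878 of each list), the upper 50% of each list, whole peaks at the edge, intervals shortened by 10 kb, an overlap of 50% of the shorter peak, gaps up to 1000 bp merged, a replicate block, quantile normalization, no window filter and leaving out each library. Applying them to single regions and windows was added after the data were seen.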

Additional observations from a re-analysis of the deposited data

How the results depend on the processing

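The share of covered sequence on chromosome 11 kept its direction in every alternative run, and limma called 0 windows in either interval in each of its alternatives. The number of peaks on chromosome 14 did not reverse in any, but differed by 0 with the upper 50%, with equal numbers and without siCtrl replicate 1. Both covered lengths, the number of peaks on chromosome 11 and the share on chromosome 14 did, and the cause was not tested. All differences are siLSD1 minus siCtrl. With the upper 50% of each list by score, chromosome 11 differed by 4.42 kb and 2.5 peaks and chromosome 14 by -1.69 kb. In intervals shortened by 10 kb at each end these were 0.325 kb, 0.5 peaks and -0.158 kb. With equal numbers of peaks chromosome 14 differed by -1.68 kb, and with whole peaks at the edge its share by 0.000163 percentage points. Leaving out each library gave -5.02 to 2.42 kb and -1.5 to 0.5 peaks on chromosome 11, and -2.21 to 3.84 kb and -0.00284 to 0.00237 percentage points on chromosome 14.

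Counts of regions moved as well. The upper 50% gave 0 gained and 2 broader regions on chromosome 11, and 1 lost and 0 narrower on chromosome 14, where genome-wide 6.33% of regions were gained, 0.697% lost, 28.7% of common regions broader and 9.79% narrower. Equal numbers gave 0 gained and 1 lost on chromosome 11 and 0 narrower on chromosome 14, where genome-wide 3.29% were gained, 3.42% lost and 9.43% narrower. In both settings the common region of chromosome 14 was no longer common to all libraries, so no region there could be narrower. Leaving out each library gave 1 to 2 gained, 0 to 3 lost and 3 to 6 narrower regions on chromosome 11, and 0 to 3 gained, 0 to 2 lost and 1 to 2 narrower on chromosome 14. Genome-wide the same settings gave 7.90% to 19.5% gained, 2.49% to 7.05% lost and 14.1% to 30.7% narrower, against 6.97%, 1.04% and 9.62% with all libraries. Of single regions on chromosome 11, the one from 407.5 kb differed by -123.5 bp with equal numbers and the one from 553.8 kb by -848.5 bp with the upper 50%, and leaving out each library gave -997.5 to 159.5 bp at 717.2 kb and -63.5 to 557.5 bp at 904.2 kb. The chromosome 14 window from 290 kb differed by -0.0555 kb with equal numbers and by -0.116 to 1.48 kb on leaving out each library.

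The siRNAs share replicate numbers, but with 2 pairs and no stated link these do not pair the libraries. Deviations of same-numbered libraries had r = 0.150 over 43372 windows. With the replicate block limma called 0 windows, as without it, with 6135 higher and 889 lower at an unadjusted p under 0.05. Quantile normalization called 9 windows genome-wide, 5 higher and 4 lower, and 0 in the intervals, and put the median difference over all windows at -0.146 kb, against 0.213 kb without it. Read depth is unknown, and its part in these lengths was not tested.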
